A study of Mus musculus with 12 samples.

Results

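The comparison of siCCNF with siCONTROL asked which transcripts changed in C2C12 cells, an immortalised mouse myoblast line that can be made to fuse into muscle fibres, after depletion of cyclin F. Its 6 libraries, 3 of siCCNF and 3 of siCONTROL, were taken from the 12 of the series by their treatment label, and every gene of the deposited count table that passed a filter on low counts was used, which left 15122 of 54532 genes. In both groups the cells had received siRNA at 30 nM and were harvested after 48 h, and the only difference given between them is the siRNA: one against Ccnf, the other a control. The remaining 6 libraries came from the same line treated with siKEAP1 or with siKEAP1/siCCNF. The series as a whole addressed how the oxidative stress regulator NRF2 is switched off again, with cyclin F as one of the factors depleted. Levels are given as CPM, read counts scaled to the size of the library with trimmed mean of M values factors, and differences as log2 fold changes of siCCNF over siCONTROL with their standard error (SE). Where 3 levels are given in a row they are those of replicates 1, 2 and 3, and siCONTROL comes before siCCNF. Differences were tested by quasi-likelihood in edgeR, and every adjusted p below comes from that test with adjustment after Benjamini and Hochberg over all 15122 genes. A single C2C12 line was used, transcripts of whole cultures were read, and the sources used here do not say which siRNA or pool was used against Ccnf, so effects of a lower Ccnf level and effects of the siRNA on other transcripts cannot be told apart.

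Cyclin F, despite its name, binds no cyclin-dependent kinase. It is an F-box protein that brings substrates to the SCF ubiquitin ligase (built on SKP1, CUL1 and RBX1), which marks them for the proteasome. Its known substrates sit largely in the cell cycle: regulators of DNA replication origins, the ribonucleotide reductase subunit RRM2, E2F transcription factors, proteins of the centrosome and the spindle. The E2F factors in turn switch on the genes of DNA synthesis, while a second wave of genes for mitosis is switched on later by the MuvB, B-MYB and FOXM1 proteins. Proliferating myoblasts stop dividing when they differentiate, and MYOD1 and myogenin then activate the genes of the contractile apparatus.

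The cells matched their label, since all 8 myoblast markers looked at were detected and their summed level was 5001 to 5384 CPM in siCONTROL and 3032 to 3135 CPM in siCCNF. Of other cell types, the markers Adipoq, Cidec, Lep and Plin1 of adipocytes, Adgre1, Fcgr1, Itgam, Ptprc and Tyrobp of macrophages, and Emcn, Erg, Kdr, Pecam1 and Tie1 of endothelium lay below the filter. The tested markers of adipocytes summed to 76.7 to 88.0 CPM in siCONTROL and 43.7 to 46.4 CPM in siCCNF (4 of 8 markers), those of macrophages to 13.24 to 17.08 and 17.96 to 22.59 CPM (4 of 9), those of bone and cartilage to 1982 to 2120 and 2051 to 2380 CPM (6 of 10), and those of endothelium to 0.538 to 1.09 and 0.0805 to 0.622 CPM (3 of 8). One library stood apart from its group: siCONTROL replicate 1 differed from the other 2 siCONTROL libraries with a chi-square per degree of freedom of 35.2 and 43.4 across genes, against 2.96 between those 2 and 5.39 to 13.3 among the siCCNF libraries. Its deviations followed transcript length, with a correlation across genes of -0.305, and the fit of siCCNF against siCONTROL was repeated without it. Values from that fit are given for some of the results below, not for all. The interaction with siKEAP1 was not refitted without it. Outside this comparison, deviations of siKEAP1/siCCNF replicate 3 also followed transcript length (-0.276, against 0.199 and 0.152 for replicates 1 and 2). No fit left that library out. The siCCNF libraries were also deeper, with 26039296 to 37743198 counts against 18464209 to 22231732, and a larger share of their counts came from the mitochondrial genome (3.29 to 3.83% against 2.16 to 2.24%). Whether these differences contribute to the results was not tested beyond the fits named below.

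The targeted gene was lower in every siCCNF library. Ccnf (chr17:24223232-24251409 on GRCm38, the build that the coordinates of the table match) was at 85.5, 80.1 and 77.7 CPM in the siCONTROL libraries and at 19.7, 20.4 and 21.3 CPM in the siCCNF libraries, which left 25.2% of the control level. The groups did not overlap, and the log2 fold change was -1.99 ± 0.08 (adjusted p = 2.46e-09). Of the other subunits of the ligase, the scaffold Cul1 fell from 143 ± 3.2 to 104 ± 1.58 CPM (SD, n = 3; adjusted p = 1.18e-05 by edgeR), while the adaptor Skp1a had a log2 fold change of 0.03 ± 0.08 and the RING subunit Rbx1 of -0.10 ± 0.09, neither of which passed the test.

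Across the 15122 genes, 1719 were called, with an adjusted p below 0.05 and a change of more than 2-fold, which is 11.4% of the genes tested. Among them 697 were higher after siCCNF (4.61%) and 1022 lower (6.76%). With the adjusted p alone, 7247 genes passed (47.9%), 3396 of them higher (22.5%) and 3851 lower (25.5%), and the median log2 fold change of all genes was 0.01. Groups that did not overlap were found for 8529 genes (56.4%), 4211 of them higher (27.8%) and 4318 lower (28.6%). Changes were thus frequent, and every count of a gene group below is to be read against these shares. Large changes were less common: 166 genes were called more than 4-fold higher and 202 more than 4-fold lower, and beyond 16-fold there were 18 and 15. The balance differed with the level in siCONTROL. Among genes under 1 CPM in siCONTROL 13.2% were called higher and 6.89% lower, whereas among genes of 100 CPM or more 1.35% were called higher and 6.16% lower. The siCONTROL level is itself part of the fold change, and a gene low in siCONTROL can pass the filter through another group. Some of this difference is therefore built in, and how much was not tested. Without siCONTROL replicate 1, 1642 genes were called, and 1425 genes were called in both fits (82.9% of the 1719 and 86.8% of the 1642).

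**Figure D1:**
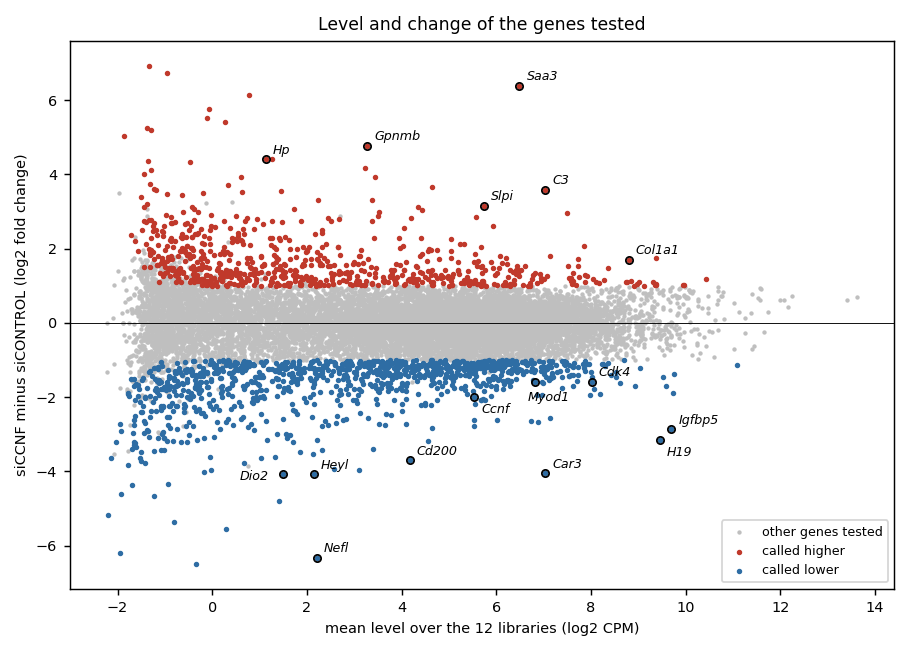
Each point is a gene tested, placed by its mean level over the 12 libraries (x axis, log2 CPM) and its log2 fold change of siCCNF over siCONTROL (y axis). Red and blue points are the 697 genes called higher and the 1022 called lower, grey points the others, and black rings mark named genes: Saa3 stands alone at the top among genes of its level, and the abundant H19, Igfbp5 and Car3 lie far below 0.

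Of the 12 largest rises among genes with a mean log2 CPM of at least 1, 5 were of secreted proteins of the acute phase and of the innate defence. Serum amyloid A3 (Saa3, ENSMUSG00000040026, chr7:46711998-46715700), an acute-phase protein made outside the liver, led them. It was at 2.29, 2.77 and 1.59 CPM in siCONTROL and at 169, 199 and 185 CPM in siCCNF, a ratio of means of 83.2 and a log2 fold change of 6.38 ± 0.17 (adjusted p = 1.65e-10). Complement C3, the central protein of the complement cascade, was at 10.4, 21.9 and 23.1 CPM and then at 203, 220.4 and 241 CPM, with a log2 fold change of 3.59 ± 0.22 (adjusted p = 5.45e-08). Lipocalin 2 (Lcn2), which withholds iron from bacteria by binding their siderophores, was barely detected in siCONTROL at 0.448, 0.597 and 0.867 CPM and reached 8.61, 13.6 and 12.8 CPM (4.18 ± 0.33, adjusted p = 3.81e-07). In all of these the lowest siCCNF library lay well above the highest siCONTROL library. Haptoglobin (Hp), a scavenger of free haemoglobin, went from 0.269, 0.109 and 0.0482 to 1.88, 4.32 and 3.49 CPM, and its log2 fold change of 4.41 ± 0.53 was 5.30 without siCONTROL replicate 1. Slpi, a secreted inhibitor of leukocyte proteases, rose from 6.32, 8.08 and 7.95 to 55.4, 76.2 and 67.3 CPM (3.16 ± 0.15, adjusted p = 7.28e-09).

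The rest of the 12 largest rises came from several classes. Gpnmb, a transmembrane glycoprotein found in lysosomes and melanosomes, was at 0.224, 0.597 and 1.11 CPM in siCONTROL and 10.6, 22.7 and 19.5 CPM in siCCNF, with a log2 fold change of 4.78 ± 0.41 that became 5.46 without siCONTROL replicate 3. The chemokine Cxcl14 was at 0.0448, 0.217 and 0.241 CPM against 3.36, 3.89 and 3.44 CPM (4.41 ± 0.36). Cholecystokinin (Cck), a peptide hormone of gut and brain, was at 1.88, 1.36 and 4.43 CPM against 26.1, 33.1 and 38 CPM (3.65 ± 0.32, and 4.30 without siCONTROL replicate 3). None of these groups overlapped. Lama4, a laminin chain of basement membranes, rose from 2.08 ± 0.556 to 20.5 ± 1.73 CPM (SD, n = 3), and the transcriptional repressor Prdm1 from 0.199 ± 0.0687 to 2.31 ± 0.483 CPM. Axin2, a negative-feedback target of Wnt signalling, was at 0.852, 0.597 and 1.25 CPM and then at 11.3, 7.93 and 7.7 CPM (3.30 ± 0.29, adjusted p = 1.11e-06). One of the 12 rested largely on a single library. The mitochondrial transcript mt-Nd4l, a subunit of complex I whose gene overlaps mt-Nd4 by 7 bases, was at 1.08, 2.55 and 2.02 CPM in siCONTROL and at 74.1, 5.17 and 5.72 CPM in siCCNF, so that siCCNF replicate 1 lay far above the other 2, and its log2 fold change of 3.94 became 1.55 without that library.

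**Figure D2:**
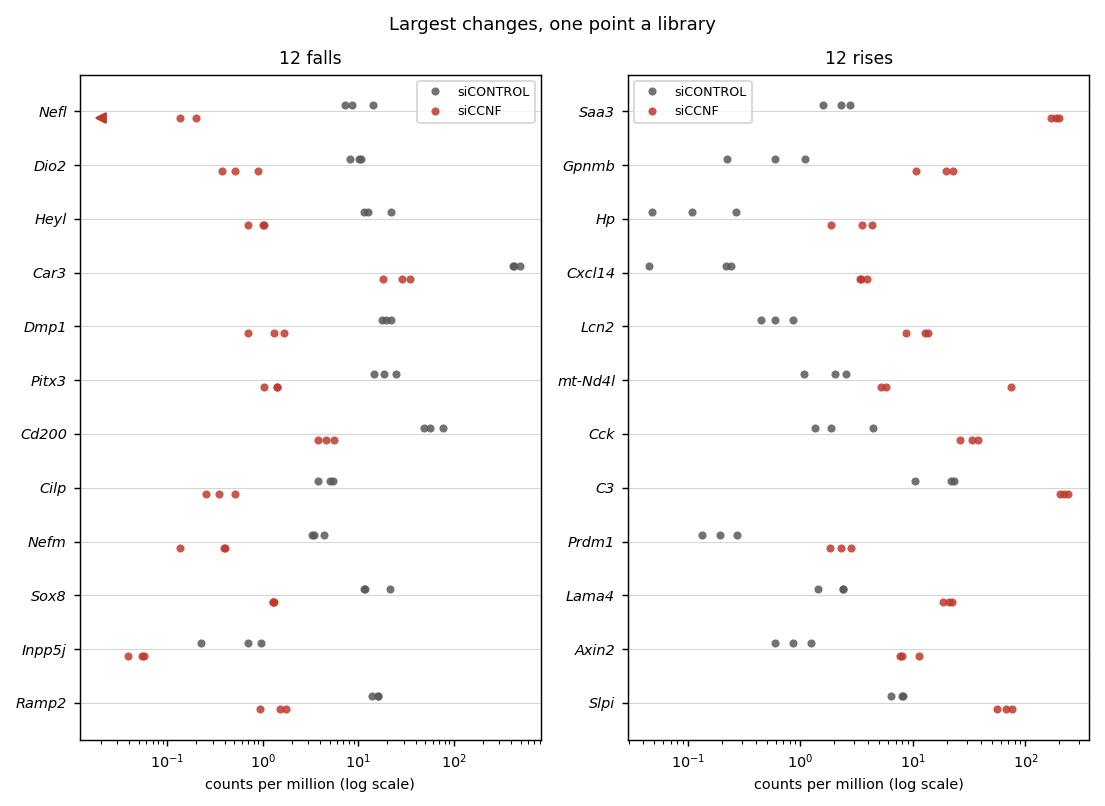
Levels of the 12 largest falls (left) and the 12 largest rises (right) in CPM on a log scale, with 1 point for each of the 3 siCONTROL (grey) and 3 siCCNF (red) libraries. No gene shown has overlapping groups, mt-Nd4l has 1 siCCNF library far above the other 2, and the arrowhead marks the siCCNF library in which Nefl had a count of 0.

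Genes of neurofilaments, of bone matrix and of Notch signalling were among the 12 largest falls. The neurofilament light chain Nefl (chr14:68083863-68089095), a structural protein best known from axons, was at 14.3, 7.32 and 8.67 CPM in siCONTROL and at 0.2, 0 and 0.134 CPM in siCCNF, and its log2 fold change was -6.33 ± 0.43 (adjusted p = 1.09e-07), or -6.92 without siCCNF replicate 1. Its neighbour Nefm, encoding the medium chain, was at 4.35, 3.26 and 3.42 CPM against 0.399, 0.389 and 0.134 CPM (-3.60 ± 0.31). The 2 annotated genes overlap on opposite strands over the whole of Nefl (5233 bases), and whether counting used strand is not given in the sources used here, so reads of that stretch cannot be assigned to one of them with certainty. Car3, the muscle carbonic anhydrase, was the most abundant gene of this group, at 497, 432 and 419 CPM in siCONTROL and 34.5, 18.1 and 28.7 CPM in siCCNF. This left 6.03% of its level (-4.05 ± 0.22, adjusted p = 1.86e-08). Dio2, the deiodinase that converts thyroxine to its active form, was at 10.6, 10.3 and 8.28 CPM and then at 0.371, 0.894 and 0.51 CPM (-4.08 ± 0.27, adjusted p = 9.54e-08). Dmp1, a matrix protein of mineralising bone, fell from 19.7 ± 2.32 to 1.23 ± 0.488 CPM, and Cilp, a protein of cartilage matrix, from 4.76 ± 0.863 to 0.372 ± 0.128 CPM. Cd200, a surface glycoprotein that restrains myeloid cells, was at 76.2, 55.7 and 49.2 CPM in siCONTROL and at 5.56, 4.63 and 3.81 CPM in siCCNF. Ramp2, which sets the ligand choice of the calcitonin-receptor-like receptor, was at 16.1, 16.2 and 14.1 CPM against 1.77, 0.933 and 1.5 CPM. In none of these genes did a siCCNF library reach the lowest siCONTROL library. The inositol phosphatase Inpp5j had 5, 13 and 20 counts in siCONTROL and 2, 1 and 2 in siCCNF, a ratio of 0.0808 (95% exact interval from counting error alone, 0.0248 to 0.206), and its gene overlaps Pla2g3 on the other strand.

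Transcription factors were called lower about as often as all genes, and higher less often. Of 962 annotated as such in the deposited table and tested, 26 were called higher (2.7%) and 63 lower (6.55%), against the 4.61% and 6.76% of all genes. The difference was not tested. Basic helix-loop-helix factors, the class of MYOD1, numbered 3 higher and 10 lower among 48, and homeobox factors 2 higher and 12 lower among 78. Heyl, a repressor induced by Notch, was at 22.2, 12.8 and 11.4 CPM in siCONTROL and 0.998, 0.7 and 1.02 CPM in siCCNF (-4.07 ± 0.34, adjusted p = 6.32e-07). Pitx3, a homeobox factor of lens, midbrain and myoblasts, was at 25, 18.5 and 14.6 CPM against 1.03, 1.4 and 1.4 CPM (-3.93 ± 0.23). Sox8, an HMG-box factor, was at 21.3, 11.6 and 11.7 CPM against 1.28, 1.32 and 1.29 CPM (-3.52 ± 0.25). In Heyl and Sox8 siCONTROL replicate 1 was the highest library, and without it the log2 fold changes were -3.71 and -3.16. Mycl, a relative of MYC, fell from 34.5 ± 14.9 to 3.3 ± 0.145 CPM and the forkhead factor Foxo6 from 11.2 ± 2.9 to 1.8 ± 0.172 CPM. The factors that rose most besides Prdm1 had smaller effects: Ahrr, a repressor of the aryl hydrocarbon receptor, had a log2 fold change of 2.29 ± 0.16, Foxq1 of 1.65 ± 0.19, the bZIP repressor Bach2 of 1.58 ± 0.31 and Lef1, the DNA-binding partner of beta-catenin, of 1.58 ± 0.16.

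Genes of the cell cycle fell as a group, and the substrates of cyclin F were among them. Of 14 genes that encode known cyclin F substrates, 13 fell at an adjusted p below 0.05 and none rose, with a median log2 fold change of -0.72. Cdc6, which loads the replicative helicase onto origins, was at 38.3, 38.4 and 38.7 CPM in siCONTROL and 14.5, 14.6 and 16.3 CPM in siCCNF (-1.34 ± 0.10, adjusted p = 2.45e-07). E2f1, the activator of the genes of DNA synthesis, was at 78.6, 70 and 72.2 CPM against 32.8, 36.7 and 34.8 CPM (-1.08 ± 0.09, adjusted p = 7.24e-07). The ribonucleotide reductase subunit Rrm2 was at 378, 394 and 404 CPM against 203, 248 and 243 CPM (-0.76 ± 0.08, adjusted p = 4.7e-06). The groups of these 3 genes did not overlap, and the spread within each group was small beside the difference. E2f8 (-1.04), the spindle proteins Nusap1 (-0.92) and Kif20b (-0.68), the nuclease Exo1 (-0.82), Mybl2, which encodes B-MYB (-0.78), E2f7 (-0.65), E2f3 (-0.63), E2f2 (-0.54), the anaphase-promoting-complex activator Fzr1 (-0.42) and the histone mRNA binder Slbp (-0.27) followed, and the 1 member that did not pass was the centriole protein Ccp110 (-0.07 ± 0.11). These are transcript levels, and the proteins were not measured.

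Of 24 cyclins, cyclin-dependent kinases (CDKs) and their regulators, 17 fell and 3 rose (median -1.03). Cdk4, the kinase of the G1 phase, was at 426, 363 and 360.3 CPM in siCONTROL and 128, 129 and 125 CPM in siCCNF (-1.59 ± 0.09, adjusted p = 2.56e-08). The retinoblastoma gene Rb1 fell as well, from 40.1, 42.2 and 40.1 to 12.7, 15.5 and 16 CPM (-1.47 ± 0.09). In both genes every siCCNF library lay below every control. The mitotic cyclins Ccnb1 (-1.18 ± 0.06) and Ccna2 (-1.12 ± 0.06) and the G1 cyclin Ccnd1 (-1.12 ± 0.10) fell. Cdk7, the CDK-activating kinase (0.63 ± 0.06), and the phosphatase Cdc25a (0.28 ± 0.06) rose. So did the G1/S cyclin Ccne1 (0.27 ± 0.09, adjusted p = 0.022), whose call was lost without any 1 of replicates 2 and 3 of either group (adjusted p from 0.0575 to 0.0984). Of 6 tested CDK inhibitors 3 fell, led by Cdkn3 (-1.70 ± 0.15) and Cdkn2d (-1.05 ± 0.12), and Cdkn1b rose (0.26 ± 0.07). The p21 gene Cdkn1a was at 243, 204 and 202 CPM in siCONTROL and 176, 196 and 194 CPM in siCCNF and did not pass the test (adjusted p = 0.0537), although it did without siCONTROL replicate 2 (0.0474) or 3 (0.0316), with log2 fold changes of -0.23 and -0.25.

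The machinery of DNA synthesis followed the same direction. Of 45 DNA replication genes 39 fell and 2 rose (median -0.77), with Mcm6, a subunit of the replicative helicase, leading. It was at 283, 294 and 291 CPM in siCONTROL and 107, 109 and 109.6 CPM in siCCNF (-1.41 ± 0.06, adjusted p = 3.8e-09). Gmnn, whose protein geminin prevents a second licensing of origins, was at 46, 32.1 and 32.3 CPM against 15.2, 14.3 and 13.2 CPM (-1.37 ± 0.14). The origin recognition subunits Orc3 (0.26 ± 0.07) and Orc5 (0.27 ± 0.07) were those that rose. Genes of nucleotide synthesis were mostly lower. Tk1 (-1.19 ± 0.10) and Tyms (-0.996 ± 0.09), which supply thymidylate, fell, while Ctps, the CTP synthase, rose (0.53 ± 0.09), and over the 24 genes 14 fell and 2 rose (median -0.20). Among 26 genes of DNA repair and checkpoints 20 fell and none rose (median -0.63), with Rad51ap1 (-1.22 ± 0.09) and the checkpoint scaffold Topbp1 (-1.18 ± 0.08) at the front.

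All 45 mitosis genes fell at an adjusted p below 0.05, with log2 fold changes from -1.40 to -0.23 and a median of -0.92. For 44 of them the groups did not overlap. Cdc20, the activator of the anaphase-promoting complex, was at 241, 212 and 208 CPM in siCONTROL and 81.4, 89 and 80.8 CPM in siCCNF (-1.40 ± 0.07, adjusted p = 9.12e-09). Cenpa, the histone variant of centromeres, was at 148, 137 and 131 CPM against 51.8, 58.9 and 55 CPM (-1.33 ± 0.07, adjusted p = 2.11e-08). The proliferation marker Mki67 was the one with the widest spread in siCONTROL, at 307, 548 and 572 CPM, against 225, 255 and 248 CPM in siCCNF. Its log2 fold change of -0.97 ± 0.20 was -1.21 without siCONTROL replicate 1, which held the low value. Without that library 44 of the 45 genes fell, 37 of the replication genes and 13 of the cyclin F substrates. In bulk RNA, fewer cells in S phase and mitosis and less of these transcripts per cell cannot be told apart.

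**Figure D3:**
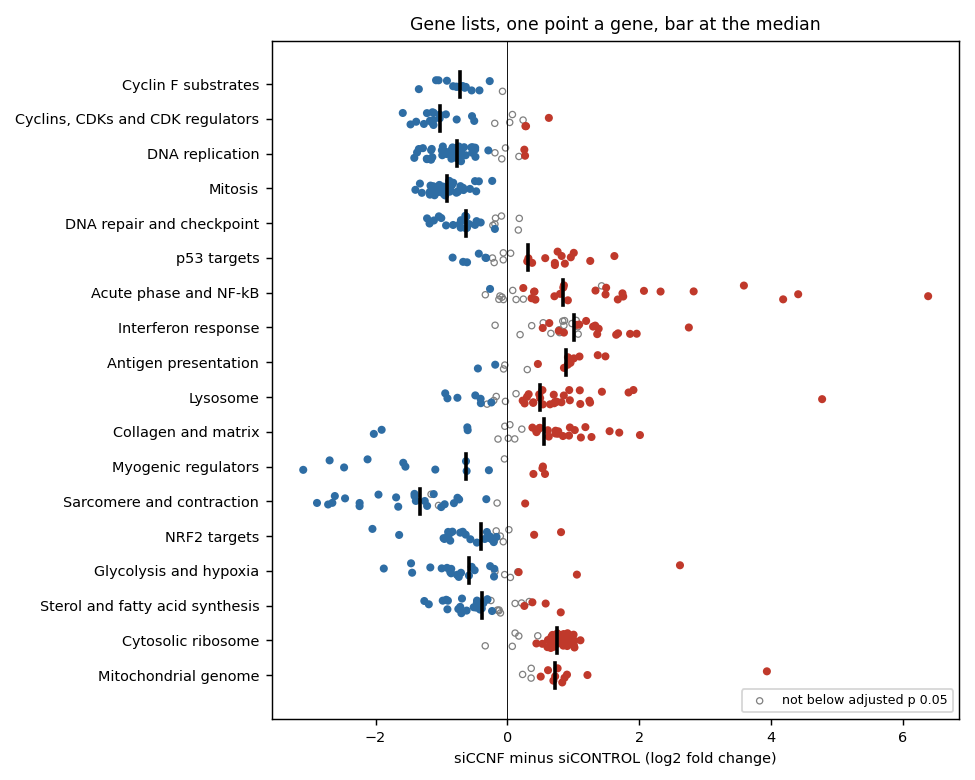
Log2 fold changes of siCCNF over siCONTROL (x axis) for the tested members of 18 gene lists, 1 point a gene and a black bar at the median of each list. Filled points passed an adjusted p of 0.05 (red higher, blue lower) and open points did not: the 5 lists at the top lie mostly to the left of 0, and the immune, lysosomal, matrix, ribosomal and mitochondrial lists mostly to the right.

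Promoters show letters that these groups share. RefSeq sequences on GRCm38.p6, from 250 bases before to 50 after a start that lay within 1000 bases of the start in the table, could be matched to 9598 of the genes tested. The CHR element (TTTGAA, searched on both strands), through which MuvB represses and activates mitotic genes, was in 26 of 35 matched mitosis promoters (74.3%), in 11.4% of all matched promoters, in 13.3% of those of genes called lower and in 11.8% of those called higher. E2F sites (TTTCCCGC, TTTGGCGC, TTTCGCGC or TTTGCCGC on either strand, which can overlap each other) were in 15 of 35 replication promoters (42.9%), in 4.21% of all, and in 6.08% of those called lower against 1.31% of those called higher. CCAAT boxes were in 27 of 35 mitosis promoters (77.1%) and in 39% of all. The lists were made of genes known for this control, so the shares describe the promoters and not the siRNA. The 2 promoters shown are those of the largest fall in each list, with E2F letters in capitals for Mcm6 (chr1:128359656-128359955, minus strand) and CHR and CCAAT letters in capitals for Cdc20 (chr4:118437294-118437593, minus strand). In Mcm6 a pair of overlapping matches starts 110 and 106 bases before the start site and a further one 47 bases before it. In Cdc20 the CHR match starts 18 bases before the start site, between CCAAT boxes at 53 and 8 bases before it.
Mcm6: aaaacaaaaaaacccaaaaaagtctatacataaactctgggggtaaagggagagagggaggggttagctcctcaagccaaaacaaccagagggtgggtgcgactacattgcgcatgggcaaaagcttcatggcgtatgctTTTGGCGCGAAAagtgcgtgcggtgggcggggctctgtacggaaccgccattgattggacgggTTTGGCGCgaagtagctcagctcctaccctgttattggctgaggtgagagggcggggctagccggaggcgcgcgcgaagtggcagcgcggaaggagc
Cdc20: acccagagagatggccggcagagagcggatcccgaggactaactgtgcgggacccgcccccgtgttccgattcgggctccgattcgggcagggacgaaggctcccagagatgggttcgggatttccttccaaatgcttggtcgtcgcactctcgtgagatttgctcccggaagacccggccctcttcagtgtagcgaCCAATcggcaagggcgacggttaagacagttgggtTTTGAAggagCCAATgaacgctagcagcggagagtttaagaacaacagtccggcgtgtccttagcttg

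Muscle genes fell with the cell-cycle genes. Of 15 myogenic regulators tested (of 18 listed), 10 fell and 4 rose, with a median log2 fold change of -0.63. Myod1, the master regulator of the lineage, was at 253, 222 and 206 CPM in siCONTROL and 69.3, 78.3 and 80.2 CPM in siCCNF (-1.58 ± 0.08, adjusted p = 1.86e-08). Myf5, which acts beside it in myoblasts, was at 95.6, 83.8 and 79.6 CPM against 29.7, 29.4 and 29.6 CPM (-1.55 ± 0.08, adjusted p = 1.39e-08). Both groups were tight and well apart. Myog, encoding myogenin, and Mymk, encoding the fusion protein myomaker, were less even, since siCONTROL replicate 1 was high: Myog was at 74.6, 32 and 29.3 CPM against 10.2, 6.84 and 7.35 CPM. Mymk was at 17.6, 7 and 7.08 CPM against 1.65, 0.933 and 1.07 CPM. Their log2 fold changes were -2.48 ± 0.30 and -3.10 ± 0.35, and -1.91 and -2.51 without that library, both still past the test. The stem-cell factor Pax7 was -0.62, and Mef2a, a late cofactor, rose (0.54 ± 0.10).

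Of 26 sarcomere and contraction genes tested (of 34 listed) 22 fell and 1 rose, and the median was -1.32, or -0.99 with 17 falls without siCONTROL replicate 1. Subunits of the muscle acetylcholine receptor were among those that fell. Chrna1 was at 333, 244 and 234 CPM in siCONTROL and 44.8, 38.6 and 45 CPM in siCCNF (-2.66 ± 0.13, adjusted p = 8.15e-09). Chrnd was at 29.4, 15.1 and 17.9 CPM against 3.36, 3.19 and 2.93 CPM (-2.72 ± 0.22, adjusted p = 4.86e-07). Slow troponin I (Tnni1) was at 9.28, 4.56 and 4.62 CPM against 0.969, 0.855 and 0.671 CPM (-2.89 ± 0.34, -2.46 without siCONTROL replicate 1). In all 3 of them siCONTROL replicate 1 was the highest library, and the siCCNF libraries were lower than any control. Tpm1, a tropomyosin also used outside muscle, was the 1 gene that rose (0.27 ± 0.06). Among the markers of the lineage, the muscle cadherin Cdh15 was at 185, 143 and 127 CPM against 44.8, 49.6 and 52.2 CPM (-1.63 ± 0.13), and 7 of the 8 myoblast markers fell.

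A pair of abundant transcripts of the IGF axis was among the largest falls of highly expressed genes. The imprinted noncoding RNA H19, which is transcribed beside Igf2, was at 2579, 2191 and 2063 CPM in siCONTROL and 272, 230.2 and 265 CPM in siCCNF, or 11.2% of the control level (-3.15 ± 0.15, adjusted p = 8.21e-09). The IGF-binding protein Igfbp5 was at 2188, 2435 and 2405 CPM against 330.2, 302 and 338 CPM (-2.86 ± 0.12, adjusted p = 3.8e-09). Its relative Igfbp4 moved the other way, from 8.43, 10.2 and 11.8 to 80.2, 64.2 and 75.5 CPM (2.86 ± 0.13, adjusted p = 5.38e-09). Over the 19 tested genes of IGF and insulin signalling 7 rose and 8 fell, so the list had no common direction (median -0.18). Of 16 Notch genes 8 fell and 2 rose (median -0.45): besides Heyl, the ligand Jag2 fell (-1.67 ± 0.08) and the ligand Jag1 rose (1.03 ± 0.19). BMP and TGF-beta genes were divided, 14 higher and 10 lower of 31, with Tgfb3 (-1.34 ± 0.08) and the receptor Tgfbr1 (-1.09 ± 0.12) lower and the activin antagonist Fst higher (1.54 ± 0.13).

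Beyond Saa3, Hp, Lcn2 and C3, the list of acute-phase and NF-kB genes rose broadly: 23 of 33 tested genes were higher and 1 lower, with a median of 0.85, against 22.5% and 25.5% of all genes. Il6, the cytokine that drives the acute phase, was at 1.17, 0.705 and 1.25 CPM in siCONTROL and 5.16, 9.56 and 7.86 CPM in siCCNF (2.83 ± 0.32, adjusted p = 9.81e-06). The neutrophil chemokine Cxcl1 was at 77.5, 70.3 and 72.7 CPM against 282, 324 and 322 CPM (2.07 ± 0.09, adjusted p = 3.2e-09). The monocyte chemokine Ccl2 was at 23.4, 23.1 and 27.1 CPM against 63.4, 96.5 and 87.1 CPM (1.75 ± 0.16, adjusted p = 1.39e-06). All 3 were higher in every siCCNF library than in any control. The feedback inhibitors of the NF-kB pathway Tnfaip3 (1.498 ± 0.13) and Nfkbia (0.37 ± 0.07) rose too, while the subunits themselves, Rela (-0.13 ± 0.07) and Nfkb1 (-0.06 ± 0.06), did not pass the test. Without siCONTROL replicate 1 the counts were 22 and 1. A list of genes linked to the secretory phenotype of senescent cells partly overlaps this list: of 29 tested 14 rose and 8 fell. Lamin B1 (Lmnb1), whose loss accompanies senescence, was at 304, 292 and 288 CPM in siCONTROL and 77.3, 75.9 and 76.2 CPM in siCCNF (-1.95 ± 0.07, adjusted p = 2.06e-09). Of the CDK inhibitors, Cdkn1a did not pass the test, and Cdkn2a and Cdkn2b lay below the filter. Among 24 targets of p53, 13 rose and 6 fell (median 0.31), with Sesn2, a stress-induced inhibitor of mTORC1, from 30 ± 1.38 to 92.4 ± 4.25 CPM (1.62 ± 0.07) and Plk2 next (1.26 ± 0.08).

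An NF-kB motif (the kappa-B consensus, searched on both strands) was in 6 of the 21 matched promoters of the acute-phase and NF-kB list (28.6%) and in 1.67% of all matched promoters, and it was in 2.1% of those of genes called higher. A C/EBP motif (TTGCNNAA, both strands) was in 6 of the same 21 (28.6%), in 7.97% of all and in 12.9% of those called higher. The list holds genes chosen as acute-phase and NF-kB genes, so its shares describe the promoters and not the siRNA. Shown here are the gene with the largest rise, Saa3 (chr7:46715627-46715926, minus strand), whose window holds 1 C/EBP match and no match to the NF-kB motif, and Cxcl1 (chr5:90890995-90891294, plus strand), whose window holds 2 NF-kB matches. The matches are in capitals and start 99 bases before the start site in Saa3 and 89 and 71 bases before it in Cxcl1.
Saa3: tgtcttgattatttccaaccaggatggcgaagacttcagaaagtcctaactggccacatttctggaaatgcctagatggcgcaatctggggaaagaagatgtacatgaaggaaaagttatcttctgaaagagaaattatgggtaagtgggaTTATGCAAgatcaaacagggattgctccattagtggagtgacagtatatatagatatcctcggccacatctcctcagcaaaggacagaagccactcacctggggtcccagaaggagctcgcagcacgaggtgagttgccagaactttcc
Cxcl1: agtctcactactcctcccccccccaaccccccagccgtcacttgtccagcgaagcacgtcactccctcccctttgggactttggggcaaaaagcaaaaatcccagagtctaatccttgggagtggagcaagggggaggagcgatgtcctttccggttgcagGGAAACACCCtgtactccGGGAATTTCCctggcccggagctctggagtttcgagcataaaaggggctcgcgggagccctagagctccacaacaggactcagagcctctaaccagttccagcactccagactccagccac

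Interferon-stimulated genes were higher on average, but their level depended on 1 control library. Of 30 genes 16 rose and none fell, with a median log2 fold change of 1.01. Zbp1, a sensor of Z-form nucleic acid, was at 0.717, 2.93 and 3.52 CPM in siCONTROL and 10.5, 23.9 and 13.5 CPM in siCCNF (2.75 ± 0.48, adjusted p = 0.000415). Ifi44 was at 1.39, 13.3 and 13.1 CPM against 24.1, 50.6 and 32.6 CPM (1.96 ± 0.55). The ubiquitin-like modifier Isg15 was at 10.5, 36 and 37.4 CPM against 47.5, 81.2 and 49.4 CPM (1.09 ± 0.42, adjusted p = 0.0452), and it no longer passed without siCONTROL replicate 1 (0.69, adjusted p = 0.0953) or without any 1 of the siCCNF libraries (adjusted p from 0.0511 to 0.173), nor with DESeq2 (0.068), in a fit of the 6 libraries alone (0.0663) or with a length trend removed (0.0619). In each of them siCONTROL replicate 1 was far below the other controls. Relative to the control mean, the median log2 level of the list was -1.57 in siCONTROL replicate 1, 0.32 and 0.45 in the other 2 controls, and 0.54, 1.39 and 0.76 in the siCCNF libraries (with 0.1 CPM added to each value). Without siCONTROL replicate 1 the median fold change was 0.52, while 15 genes rose. Genes of antigen presentation behaved alike, with 9 of 14 higher and 2 lower (median 0.89), and 6 higher (median 0.64) without that library. B2m, the light chain of class I molecules, did not depend on it: it was at 273, 305 and 303 CPM in siCONTROL and 526, 617 and 567 CPM in siCCNF (0.96 ± 0.09, 0.91 without that library).

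**Figure D4:**
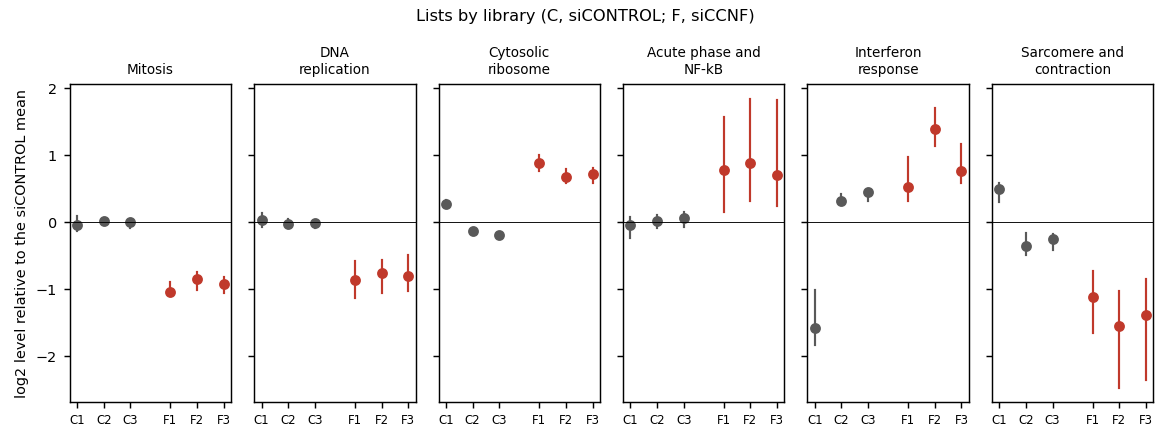
Median (point) and quartiles (line) over the tested genes of 6 lists of the log2 level in each library relative to the siCONTROL mean, with 0.1 CPM added; C1 to C3 are the siCONTROL and F1 to F3 the siCCNF libraries. The cell-cycle lists are even within each group, whereas in the interferon list C1 is at -1.57 and the other controls lie close to F1.

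Lysosomal and matrix genes were mostly higher. Of 39 lysosome genes 27 rose and 7 fell (median 0.50). Besides Gpnmb, the membrane protein Lamp1 was at 644, 632 and 659 CPM against 1191, 1292 and 1248 CPM (0.95 ± 0.07). The lipase gene Lipa (-0.94 ± 0.09) and Tfeb (-0.91 ± 0.10), which encodes an activator of lysosomal genes, fell. Autophagy genes were divided, 10 higher and 9 lower of 25. Of 32 collagens and other matrix genes 21 rose and 4 fell (median 0.55). Col1a1, a chain of type I collagen, was at 265, 318 and 329 CPM in siCONTROL and 1075, 939.8 and 942 CPM in siCCNF (1.70 ± 0.09, adjusted p = 1.4e-08). The proteoglycan Dcn was at 5.74, 8.36 and 7.37 CPM against 28.6, 28.8 and 28.8 CPM (2.01 ± 0.13, adjusted p = 9.11e-08). Both were higher in every siCCNF library. Col14a1 fell (-1.91 ± 0.19), as did Col15a1 (-2.03 ± 0.59). Of 27 matrix proteases and their inhibitors 11 rose and 6 fell, Adamts5 (1.68 ± 0.17) among the former and Mmp15 (-1.84 ± 0.16) and Adam8 (-1.70 ± 0.08) among the latter. Markers of other lineages had no common direction. Those of bone and cartilage were 2 higher and 0 lower of 6 tested, and those of macrophages 2 and 0 of 4. Those of adipocytes were 0 higher and 2 lower of 4, and none of 3 of endothelium passed the test. The alkaline phosphatase gene Alpl was at 0, 0.0543 and 0.385 CPM in siCONTROL and 2.97, 1.91 and 1.96 CPM in siCCNF (3.92 ± 0.54, and 6.29 without siCONTROL replicate 3). Lyz2 rose from 2.35 ± 0.691 to 5.58 ± 0.476 CPM.

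Most targets of NRF2 fell. NRF2, encoded by Nfe2l2, induces enzymes of glutathione synthesis, detoxification and NADPH supply, and KEAP1 with CUL3 keeps it low. Nfe2l2 itself was at 175, 166 and 170.1 CPM in siCONTROL and 125, 132 and 129 CPM in siCCNF (-0.41 ± 0.05, adjusted p = 3.75e-05). Keap1 (-0.04 ± 0.08), Cul3 (-0.10 ± 0.06) and Trip12, the ubiquitin ligase that extends the chains on NRF2 (0.17 ± 0.16), did not pass the test. Of 28 targets 21 fell and 2 rose (median -0.40). Nqo1, the quinone reductase, was at 55.9, 56.9 and 55.9 CPM in siCONTROL and 30.7, 30 and 31.6 CPM in siCCNF (-0.87 ± 0.06, adjusted p = 1.76e-07). Gclm, the modifier subunit of the enzyme that limits glutathione synthesis, was at 53.8, 51.4 and 54.3 CPM against 26.1, 29 and 27.2 CPM (-0.96 ± 0.07, adjusted p = 2.83e-07). Gsta2 was low throughout, at 0.672, 0.922 and 1.25 CPM against 0.171, 0.272 and 0.242 CPM (-2.05 ± 0.29). The groups of these 3 genes did not overlap. The haem oxygenase gene Hmox1 went the other way, from 45, 41.9 and 44.4 to 70.4, 83.8 and 76.8 CPM (0.81 ± 0.08, adjusted p = 3.05e-06), and Slc7a11 (-0.20 ± 0.17) and Srxn1 (-0.06 ± 0.07) did not pass. Without siCONTROL replicate 1, 18 targets fell and 2 rose. The antioxidant response element that NRF2 binds (TGACNNNGC, both strands) was in 5 of 19 matched target promoters (26.3%) and in 14.7% of all. Because the list was made of NRF2 targets, this share too describes the promoters and not the siRNA.

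Glycolytic and sterol genes were also lower. Of 25 genes of glycolysis and the hypoxia response 18 fell and 3 rose (median -0.58), with the hypoxia-induced Ndrg1 at 99.8, 113 and 119.6 CPM in siCONTROL and 37.4, 44.9 and 38.3 CPM in siCCNF (-1.46 ± 0.09). Enolase 1 (Eno1) was at 1383, 1351 and 1330.5 CPM against 338, 382 and 388 CPM (-1.88 ± 0.09), but its near-identical copy Eno1b fell alike, and how reads were divided between them is not known. Gapdh was at 14, 10.6 and 19.1 CPM in siCONTROL and 9.15, 105 and 156 CPM in siCCNF, so its groups overlapped. Its log2 fold change of 2.62 ± 0.93 passed the test (adjusted p = 0.0328). It did not pass without any 1 of siCONTROL replicates 1, 2 or 3 or siCCNF replicates 2 or 3 (adjusted p from 0.0588 to 0.130). Whether reads of Gapdh were shared with copies elsewhere in the genome was not tested, so these levels may not be those of the gene. Of 33 genes of sterol and fatty acid synthesis 21 fell and 4 rose (median -0.39, and -0.24 with 16 falls without siCONTROL replicate 1). The fatty acid elongase Elovl6 was at 126, 136 and 134 CPM against 55.4, 55.3 and 54.4 CPM (-1.26 ± 0.09). The unfolded protein response had no common direction, with 7 of 20 genes higher and 9 lower. Its largest fall was Edem1, which sends misfolded glycoproteins to degradation, from 117 ± 6.93 to 40.5 ± 3.31 CPM (-1.53 ± 0.08). Nor had the ATF4 targets, with 5 of 27 higher and 9 lower and log2 fold changes from -0.95 to 1.62. Nupr1 (1.32 ± 0.12) and Cebpg (-0.95 ± 0.07) were among them.

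Most genes of the cytosolic ribosome were higher. Of 49 genes 44 rose and none fell, with log2 fold changes from -0.34 to 1.11 and a median of 0.76, and without siCONTROL replicate 1 46 rose with a median of 0.93. The stalk protein Rplp0 was at 2675, 2180.2 and 2119 CPM in siCONTROL and 3904, 3380.0 and 3395 CPM in siCCNF (0.61 ± 0.11, adjusted p = 0.000333). Rps18 had the largest change (1.11 ± 0.14), though ribosomal protein genes have many processed copies in the genome that may share their reads. Of 29 genes of MYC and ribosome biogenesis 16 rose and 2 fell, Myc itself from 36.2, 31.5 and 35.5 to 48.1, 55.1 and 53.6 CPM (0.60 ± 0.08). Of the 13 protein-coding genes of the mitochondrial genome 10 rose and none fell (median 0.72). The cytochrome oxidase subunit mt-Co1, one of the most abundant transcripts, was at 8869, 9644 and 9159.6 CPM against 16437, 14125 and 14323 CPM (0.70 ± 0.11, adjusted p = 0.000121). The nuclear genes of the respiratory chain did not follow: of 38 tested 1 rose and 5 fell (median -0.05), and 12 rose and 3 fell without siCONTROL replicate 1. Proteasome subunits were more often lower than higher, with 13 of 31 falling and 2 rising (median -0.18), and 10 falling and 3 rising without siCONTROL replicate 1 (median -0.06).

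The effect of siCCNF was also measured in cells that had received siKEAP1, in 6 libraries that the comparison above does not use. There Ccnf fell from 59.4 to 24.5 CPM, and Keap1 was at 12.6 CPM with siKEAP1 alone and at 24.1 CPM with both siRNAs, so more of both transcripts was left than with a single siRNA; the dose of each siRNA in the double treatment is not given in the sources used here. In that comparison 3651 genes passed the test as higher (24.1%) and 4062 as lower (26.9%), and 4605 genes passed in the same direction with and without siKEAP1 (63.5% of those without and 59.7% of those with). The interaction, the difference between the effects of siCCNF with and without siKEAP1, passed for 3181 genes (21%), and for 18 of 25 looked at here (the 24 largest changes and Ccnf). The 24 were picked for their change without siKEAP1, which enters the interaction, so a smaller effect with siKEAP1 was favoured by the choice. Saa3 rose less, by 4.45 ± 0.15 with siKEAP1 against 6.38 ± 0.17 without (interaction -1.94 ± 0.22, adjusted p = 7.03e-05). Dmp1 was lower in both, with log2 fold changes of -3.21 ± 0.21 with siKEAP1 and -3.96 ± 0.20 without, and its interaction of 0.75 ± 0.30 did not pass (adjusted p = 0.0945). Car3 was at 29.5 CPM with siKEAP1 alone and at 19.4 CPM with both, against 449 CPM in siCONTROL, so siKEAP1 alone went with a low level as well (interaction 3.44 ± 0.29, adjusted p = 8.03e-06).

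The lists differed in how far they kept their direction with siKEAP1. Ribosomal genes moved as before, with 45 of 49 higher and a median of 0.71, and matrix genes too, with 23 of 32 higher (median 0.84). NRF2 targets fell more widely, 26 of 28 being lower (median -1.16), and Nqo1 was at 397 CPM with siKEAP1 alone and 152 CPM with both, against 56.2 CPM in siCONTROL. Of the mitosis genes 22 of 45 fell and 2 rose (median -0.19), and 5 of the 14 cyclin F substrates fell and 2 rose (median -0.16). Interferon genes did not rise as a group: 1 was higher and 2 lower (median -0.15). Sarcomere genes were 7 higher and 4 lower (median 0.15), and the baseline of these values is siKEAP1 alone, not siCONTROL. Myog was at 45.3 CPM in siCONTROL, 8.12 CPM with siCCNF, 0.175 CPM with siKEAP1 alone and 1.76 CPM with both. Its log2 fold change for siCCNF was thus 3.30 ± 0.70 with siKEAP1, from a level close to 0 to one still below siCCNF alone, and -2.48 ± 0.30 without (interaction 5.78 ± 0.72, adjusted p = 0.000122). H19 was at 2278 CPM in siCONTROL, 256 CPM with siCCNF, 88.2 CPM with siKEAP1 alone and 191 CPM with both. Both siRNAs alone left it far below siCONTROL, and its log2 fold change for siCCNF was 1.11 ± 0.14 with siKEAP1 (interaction 4.27 ± 0.21, adjusted p = 1.3e-07). The differences between lists were not themselves tested.

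**Figure D5:**
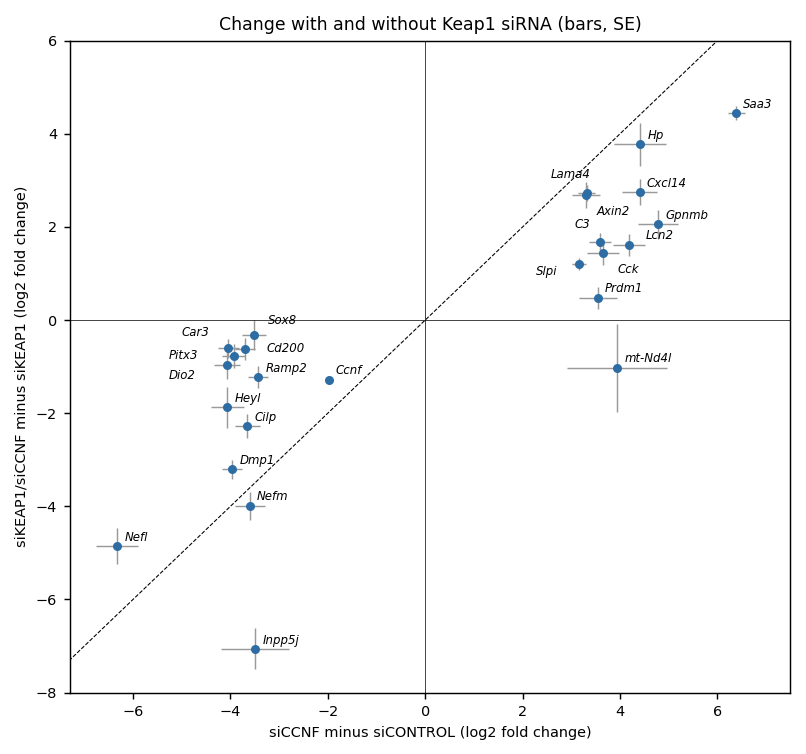
Log2 fold change of siCCNF over siCONTROL (x axis) against that of siKEAP1/siCCNF over siKEAP1 (y axis) for the 24 largest changes and Ccnf, with bars for 1 SE in each direction and a dashed line where both are equal. Most points lie between the line and 0 on the y axis, Inpp5j lies beyond the line, and mt-Nd4l is on the other side of 0.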

How the data were processed

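Poly(A)-enriched total RNA of C2C12 cells was sequenced. Per the labels' processing notes the authors' pipeline used HISAT2 and GRCm39, but 98.3% of the 54409 gene IDs shared with GENCODE M21 have its GRCm38 start and end, so GRCm38 is given here. The deposited table holds raw read counts per gene, and FPKM values that the authors scaled by gene length and depth, used here only as an alternative with a pseudocount of 1. Its fold changes and p-values of the authors' comparisons were not used. All 12 libraries (18464209 to 37743198 counts in those compared) were fitted with edgeR 4.0.16 (R 4.3.3): filterByExpr, trimmed mean of M values scaling, 4 group means, and the quasi-likelihood test, adjusted after Benjamini and Hochberg. A gene was called at an adjusted p below 0.05 and a change of over 2-fold. In simulated counts for this comparison, 200 of 200 genes changed 4-fold and 2 unchanged genes were called. There every gene had the same dispersion, the changed genes were not low in counts, and no library stood apart. The simulation therefore gives no error rate for the calls in the real counts. Alternatives were DESeq2 1.42.0, limma 3.58.1, total library sizes, other filters, thinning, a length trend, a replicate block and leaving out each siCONTROL or siCCNF library. The labels call the replicates biological without naming separate cultures, so p-values measure the spread between these samples. Deviations from the mean of each group, gene by gene, were compared between siCONTROL and siCCNF libraries of the same number. They correlated at 0.204, 0.0766 and 0.0795 across genes.

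Genes were named by rule: the 12 largest rises and 12 largest falls with a mean log2 CPM of at least 1 and groups that did not overlap, the 2 largest changes each way in a list, cyclin F, NRF2 regulators and cyclin F substrates, and the 5 transcription factors that rose or fell most. Not every gene found by the rule is described, and some items are not reported here. Adamts5, B2m, Ccl2, Ccna2, Ccnb1, Ccnd1, Ccne1, Cdkn1a, Chrna1, Cxcl1, Gclm, Isg15, Lamp1, Mki67, Myc, Myf5, Myog, Nfkb1, Nfkbia, Nqo1, Pax7, Rbx1, Rela, Rplp0, Slc7a11, Srxn1, Tnfaip3, Tyms and mt-Co1 were chosen after their values were seen. The comparison and the gene lists were chosen with earlier results of these data known. Cdc20, Cdk4, E2f8, Fzr1, Gapdh, Keap1, Lef1, Mef2a, Nusap1, Orc5, Ramp2, Rb1, Rps18, Tgfb3, Tk1 and Trip12 overlap another tested gene, so part of their reads may belong to it.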

Additional observations from a re-analysis of the deposited data

Results flagged for a closer look

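For 18 of the 25 genes compared, the 24 largest changes and Ccnf, the effect of siCCNF differed between cells with and without siKEAP1, by a quasi-likelihood test of the interaction in edgeR, adjusted after Benjamini and Hochberg over all genes. Of all genes tested, 3181 passed it (21%). The 24 were picked for their change between siCCNF and siCONTROL, and the interaction uses the same libraries. A smaller effect with siKEAP1 was therefore favoured by the choice of genes. The interaction was not refitted without siCONTROL replicate 1 or without siKEAP1/siCCNF replicate 3, whose deviations both followed transcript length. The values are the log2 fold change with siKEAP1 minus that without, from 3 libraries in each of the 4 groups. The rises that differed were smaller with siKEAP1, and mt-Nd4l was lower there (-1.03): mt-Nd4l by -4.96, Prdm1 by -3.06, Gpnmb by -2.72, Lcn2 by -2.57, Cck by -2.21, Slpi by -1.95, Saa3 by -1.94, C3 by -1.92 and Cxcl14 by -1.66. With siKEAP1 alone several of them were above siCONTROL, Slpi at 41.7 against 7.45 CPM, C3 at 67.8 against 18.5 CPM and Saa3 at 7.49 against 2.21 CPM, and with both siRNAs they were at 96.1, 216 and 163 CPM. The value of mt-Nd4l rests on siCCNF replicate 1, in which it was far above the other libraries. Among the falls those that differed were also smaller with siKEAP1, which gives a positive value: 3.44 for Car3, 3.19 for Sox8, 3.17 for Pitx3, 3.12 for Dio2, 3.08 for Cd200, 2.21 for Ramp2, 2.19 for Heyl and 1.37 for Cilp. These genes were already lower with siKEAP1 alone: in siCONTROL, with siKEAP1 alone and with both siRNAs, Car3 was at 449, 29.5 and 19.4 CPM, Cd200 at 60.4, 5.15 and 3.33 CPM, Sox8 at 14.9, 1.18 and 0.926 CPM, Pitx3 at 19.4, 2.58 and 1.53 CPM, Heyl at 15.5, 1.78 and 0.506 CPM, Ramp2 at 15.5, 2.81 and 1.22 CPM, Dio2 at 9.72, 1.199 and 0.616 CPM and Cilp at 4.76, 2.82 and 0.585 CPM. Ccnf itself was depleted less in that setting, by 0.71, and Keap1 was at 12.6 CPM with siKEAP1 alone and 24.1 CPM with both siRNAs, so the depth of depletion and the presence of siKEAP1 cannot be told apart.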

How the results depend on the processing

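Of 1719 genes called, 697 higher and 1022 lower, 1632 to 1763 were called when any 1 siCONTROL or siCCNF library was left out. DESeq2 called 1734, total library sizes 1727 (639 higher and 1088 lower), no filter on low counts 1874, the 6 libraries alone 1641, thinning to 18464209 counts 1638 and removal of a length trend 1718. Requiring 10 counts in every library left 12672 genes, of which 1124 were called, 406 of them higher. On log2(FPKM + 1), limma called 618 genes, 210 higher and 408 lower, and a test against a 2-fold change (glmTreat) called 550, 183 higher and 367 lower. Without a fold threshold 7247 genes passed, 3396 higher and 3851 lower. With a replicate block 1702 were called (694 higher and 1008 lower). In deviations from the group mean, siCONTROL replicate 3 correlated best with siCCNF replicate 2 (0.0946), so the numbers were not taken as pairs. Of 198 genes named by the rule or in the text, 2862 of 2950 values over these alternatives kept direction and call. The signs that turned were those of genes that did not pass. With 1 library left out at a time, Ccp110 ranged from -0.164 to 0.0181, Rbx1 from -0.153 to 0.0164, Skp1a from -0.0251 to 0.141 and Trip12 from -0.0199 to 0.294, and Keap1 was 0.00661 with the length trend removed. Cdkn1a passed with DESeq2 (adjusted p = 0.0424) and with total library sizes (0.0336), and Orc5 did not pass with no filter (0.0527). Isg15 lost its call with DESeq2 (0.068), with the 6 libraries alone (0.0663) and with the length trend removed (0.0619), and Gapdh with limma (0.177). The cause of these differences was not tested. The medians of the 41 lists were less stable. Of 614 values over the alternatives 541 stayed within the SD of the list median between the siCCNF libraries, and 73 moved further. Most of these came without siCONTROL replicate 1 (20 lists), with limma on log2(FPKM + 1) (14) and with 10 counts required in every library (12). The median of 5 lists near 0 changed sign: SCF partners of cyclin F (-0.03, and 0.04 without siCONTROL replicate 1 and 0.0079 with the length trend removed), the respiratory chain (-0.05, and 0.08 without siCONTROL replicate 1), the unfolded protein response (0.01, and from -0.05 to -0.02 without siCONTROL replicate 1, without siCCNF replicate 2 and with total library sizes), ATF4 targets (0.10, and from -0.11 to -0.0048 without siCONTROL replicate 3, siCCNF replicate 2 or siCCNF replicate 3) and thyroid hormone handling (-0.10, and 0.0072 with limma). Intervals cover counting error only, and genes under 1 CPM rest on few reads.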

Other observations

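Immediate early genes had no common direction. Of 23 tested, 9 rose and 7 fell at an adjusted p below 0.05 (quasi-likelihood in edgeR, adjusted after Benjamini and Hochberg), with a median log2 fold change of 0.12 against 0.01 for all genes. Klf2, a zinc-finger factor best known from endothelium and T cells, was at 24.2, 20.4 and 23 CPM in siCONTROL and 4.22, 4.08 and 3.97 CPM in siCCNF (-2.46 ± 0.16). The AP-1 subunit Jun was at 269, 206 and 215 CPM against 74.5, 90 and 82.3 CPM (-1.48 ± 0.10), and its antisense gene Junos overlaps it. Both fell, while the orphan receptor Nr4a1 rose (1.11 ± 0.14). Targets of YAP and TEAD were 9 higher and 5 lower of 21 (median 0.22). The matricellular gene Ctgf was at 10.4, 10.3 and 9.97 CPM against 18.3, 30.2 and 25 CPM (1.26 ± 0.15), and Wwtr1, which encodes the YAP relative TAZ, at 218, 235 and 253 CPM against 96.8, 90.2 and 99.2 CPM (-1.30 ± 0.10). Of 10 tested genes of thyroid hormone handling 3 fell and none rose, with Hr, a hairless corepressor (-1.001 ± 0.14), beside Dio2. Regulators of NRF2 were 5 higher and 6 lower of 20.

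Several noncoding classes leaned to higher calls. Of 341 antisense genes 30 were called higher (8.8%) and 11 lower (3.23%), of 375 lincRNAs 36 (9.6%) and 25 (6.67%), and of 257 genes of the class TEC (unclassified transcripts) 26 (10.1%) and 10 (3.89%), whereas of 12886 protein-coding genes 521 were called higher (4.04%) and 933 lower (7.24%). Not every class leaned: of 27 snoRNAs 1 was called higher (3.7%) and 1 lower (3.7%), and of 39 unprocessed pseudogenes 1 (2.56%) and 1 (2.56%). Among genes of any class under 1 CPM in siCONTROL 13.2% were called higher and 6.89% lower. The classes were not compared at equal level, so class and level cannot be told apart. The differences between classes were not tested.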
